A study of Oryzias latipes with 7 samples.

Results

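Late vitellogenesis in medaka (Oryzias latipes) was followed here through 3 arrays of isolated ovarian follicles, taken at 47, 35 and 32 h before spawning, out of 7 arrays in the series. They were chosen by the time in the samples' developmental stage labels, and the mean of the 35 h and 32 h arrays was set against the 47 h array. The other 4 arrays cover 23, 14, 8 and 2 h. For the last of these a description field gives 5 h instead. All fish were kept under one breeding regime, at 27 °C with 14 h of light and 10 h of dark, and no strain, age, genotype or treatment is given in the sources used here. At each time the RNA of 100 follicles, drawn from the largest and second-largest of the ovary, was hybridised to 1 single-colour array, so a time point is 1 pool of follicles without a replicate. The 35 h and 32 h arrays lie 3 h apart, and their difference from each other, which holds real change as well as noise, serves as the measure of array spread. No p-value is given, and every count below describes these arrays.

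In vitellogenesis the growing oocyte fills with yolk. The liver makes the yolk precursor vitellogenin under the control of estradiol, and the oocyte takes it up from the blood through receptors on its surface. The oocyte is enclosed by granulosa cells and, outside them, theca cells, which together make the estradiol. Medaka that breed daily carry follicles of successive stages at once, and a surge of luteinizing hormone later starts oocyte maturation and ovulation. A pool of whole follicles holds the RNA of all these cells, so fewer cells of a type and less RNA per cell cannot be told apart.

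Each array gave an RMA intensity (a background-corrected, normalized and summarised brightness on a linear scale) for 63698 probe sets, sets of up to 6 probes designed to one sequence. Differences are given on the log2 scale, where 1 is 2-fold and 2 is 4-fold. The 47773 probe sets whose mean log2 intensity over the 7 arrays lay above the 25th percentile, 6.24, were kept. The nearest mean to that level was 6.24402 among those kept and 6.24394 among those left out. The identifiers matched 0 entries of the RefSeq gene table used here, so genes, sequences and genome positions are not given, and the follicle label was not checked against marker genes.

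The source of an array's time and the array number both bear on the comparison. Of the 7 columns in the deposited series table, 5 hold the values of another sample's per-array file: its 35 h column equals the per-array file of 23 h, and its 32 h column that of 14 h, while its 47 h column equals the file of 47 h. Its 23, 14 and 2 h columns equal the files of 2, 32 and 35 h, and its 8 h column equals that of 8 h. Times here are those of the per-array files, with the counts by the table's times beside them. The array number is taken here from the first part of each array's image identifier, and what it stands for was not established. The 35, 32 and 8 h arrays carry numbers of 8 digits and the 47, 23, 14 and 2 h arrays numbers of 6 digits. The array-number series and the time therefore cannot be told apart between the 35 h and 32 h arrays and the 47 h array. By the table's times all 3 arrays are of the 6-digit series. The median intensity of all probe sets was 703 at 47 h, 653 at 35 h and 643 at 32 h.

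The 35 h and 32 h arrays differed from the 47 h array by more than they differed from each other, in most probe sets by little. Over the probe sets kept, the mean of 35 h and 32 h minus 47 h had a median of -0.07, a median absolute value of 0.35 and an SD across probe sets of 0.63. The corresponding values for 32 h minus 35 h were 0.00, 0.24 and 0.51. The single pairs, which compare 1 array with 1 array as the 35 h to 32 h pair does, had SDs of 0.69 for 35 h minus 47 h (12 h apart) and 0.65 for 32 h minus 47 h (15 h apart). The SD expected of the mean difference if all 3 arrays varied only as the 35 h and 32 h arrays do was 0.44, so the measured SD was 1.42 times as large. The 35 h and 32 h arrays share an array-number series, and the 47 h array is of the other. Their spread therefore holds no difference between the series, and the part of the series in the excess was not tested. By the table's times the SD was 0.85 for the mean difference and 0.69 for 32 h minus 35 h.

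The excess over the array spread was present at every level of expression. In the highest quartile of mean level, 95% of probe sets lay within 0.85 of 47 h in the mean of 35 h and 32 h, against 0.56 between 32 h and 35 h. In the lowest quartile the values were 1.58 and 1.39. Low probe sets thus differed more in every comparison, while the ratio between the comparisons was greater among high ones.

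**Figure D1:**
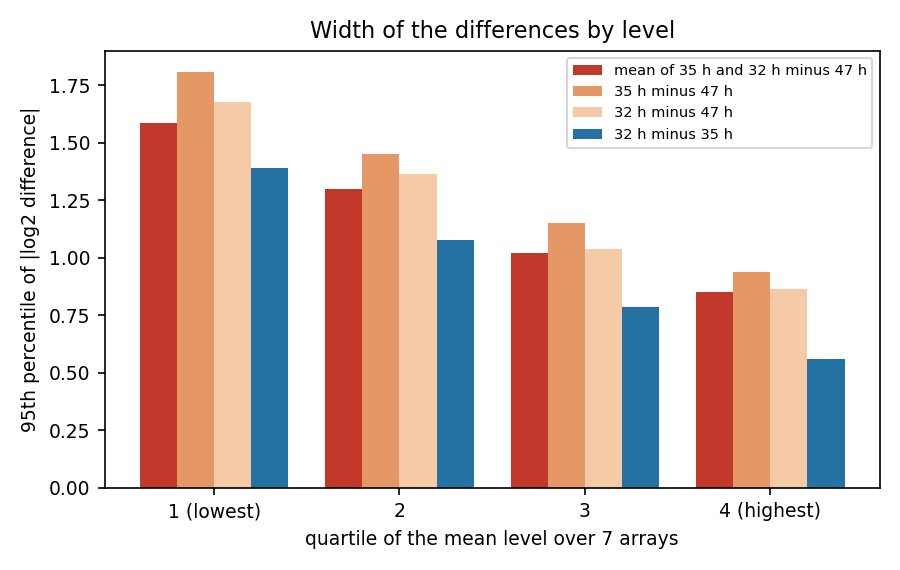
Bars give the 95th percentile of the absolute log2 difference (vertical axis, from 0) in each quartile of the mean level over the 7 arrays, for 4 comparisons. In each quartile the 3 comparisons with 47 h lie above 32 h minus 35 h, with 0.85 against 0.56 in the highest quartile for the mean difference.

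A small set of probe sets stood far apart from 47 h. In the mean of 35 h and 32 h, 261 probe sets (0.546% of those kept) were at least 4-fold higher than at 47 h and 160 (0.335%) at least 4-fold lower. Between 32 h and 35 h themselves 369 (0.772%) differed 4-fold, 194 higher and 175 lower at 32 h. That pair compares 1 array with 1 array, while a mean of 2 arrays carries less noise. The single pairs with 47 h gave 664 for 35 h and 543 for 32 h. A mean can be carried by 1 array, and 128 of the 261 higher ones and 73 of the 160 lower ones were 4-fold away from 47 h on 1 of the 2 arrays but not on the other. Of the 128, 74 passed at 35 h and 54 at 32 h, and of the 73, 43 passed at 35 h and 30 at 32 h.

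The other 220 (0.461%) were held, that is, both the 35 h and the 32 h array lay at least 4-fold on the same side of 47 h. Both differences are taken from the same 47 h array, so a held call needs only that array to stand apart. They comprise 133 higher (0.278%) and 87 lower (0.182%) probe sets, and these 2 lists are followed below. The smallest gap to 47 h on the nearer array was 2.00 (log2) in the higher list and 2.01 in the lower list. The probe sets just outside reached 1.99 in the higher and 2.00 in the lower direction, where the last value lies under the limit before rounding. By the table's times, 625 probe sets were held higher and 533 held lower, and the 47 h array is the same one in both counts.

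**Figure D2:**
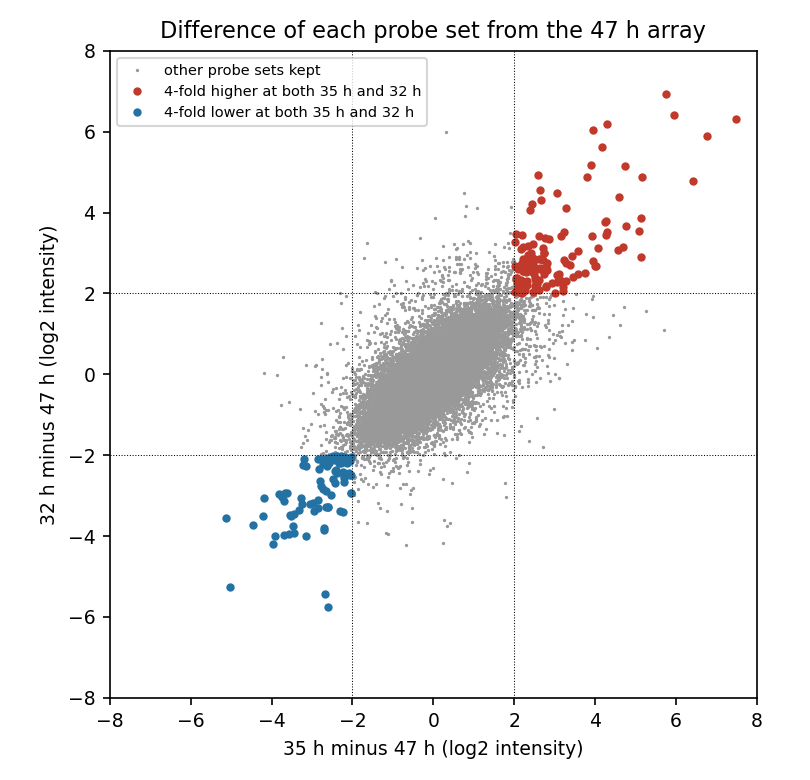
Each point is a probe set kept by the filter, with its log2 difference from 47 h at 35 h (horizontal) and at 32 h (vertical). Dotted lines mark 4-fold. The 133 red and 87 blue points lie past 4-fold on both axes.

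The balance of directions depended on the limit and on the scaling. At 4-fold more probe sets were held higher than lower, and at 2-fold fewer, with 1274 higher (2.67%) and 1493 lower (3.13%). Centring each array on its median gave 1601 higher and 1064 lower at 2-fold, and quantile normalization gave 1428 and 1178. At 4-fold the split was 166 and 70 after centring and 146 and 71 after quantile normalization. More were thus higher at 4-fold under all 3 scalings, while at 2-fold the direction of the balance turned. The size of the 4-fold balance also varied with the filter. Without a filter the split was 140 higher and 109 lower, and with a filter at the 50th percentile 51 and 20.

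Within the held lists the 35 h and 32 h arrays did not differ in a common direction. Of the 133 higher probe sets 70 were higher at 32 h than at 35 h and 63 lower. Of the 87 lower ones 46 were higher and 41 lower at 32 h. The 2 arrays lay within 0.5 of each other in 68 of the 133 (51.1%) and in 58 of the 87 (66.7%), against 78.7% of all probe sets kept. They lay at least 2-fold apart in 31 (23.3%) and 9 (10.3%), against 5.26% of all. The held lists thus differed more between 35 h and 32 h than probe sets in general. In the lowest quartile of mean level 1373 of 11944 lay 2-fold apart, 4.91% higher and 6.59% lower at 32 h. The share in the higher list was above that of this quartile, and the share in the lower list was not. The median mean difference from 47 h was 2.69 in the higher list, with a range of 2.02 to 6.90, and -2.71 in the lower list, with a range of -5.15 to -2.04. A difference of at least 16-fold was reached by 19 of the higher and 6 of the lower probe sets.

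Over all probe sets kept, a course in steps was rare. A total of 50 probe sets (0.105%) were at least 2-fold higher at 35 h than at 47 h and again at least 2-fold higher at 32 h than at 35 h, and 25 (0.0523%) were lower in both steps. A further 1232 (2.58%) were 2-fold higher at 35 h and within 0.5 of that level at 32 h, and 1975 (4.13%) were 2-fold lower and then level. After median centring these 2 counts were 1604 and 1390, which turned the balance between them, and after quantile normalization they were 1442 and 1549, which did not. Changes in the second step alone were fewer. In all, 346 probe sets (0.724%) were level to 35 h and then 2-fold higher at 32 h, and 320 (0.67%) were level and then lower. The step from 47 h to 35 h spans 12 h and crosses the array-number series. The step from 35 h to 32 h spans 3 h within the same series. Whether change slowed after 35 h was therefore not tested by these counts. Another 581 (1.22%) were higher at 35 h and then lower at 32 h, and 527 (1.1%) lower and then higher. Such turns within 15 h need only 1 array to stand apart, the 35 h array, which enters both steps. It enters them with opposite sign, so noise in it adds to the turns and works against 2 steps in the same direction. The low counts of the latter are therefore partly a matter of how the steps are defined. By the table's times the stepwise counts were 403 higher and 313 lower in both steps.

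The held probe sets were of low to middle expression. Of the 220, 121 lay in the lowest quartile of mean level, 79 in the next, 18 in the third and 2 in the highest. In the higher list the median intensity was 99.6 at 47 h, 896 at 35 h and 967 at 32 h. At 47 h 57 of these 133 lay below 75.8, the intensity at the filter level, and at 35 h and 32 h 0 did. In the lower list the median was 884 at 47 h, 123 at 35 h and 114 at 32 h, and 28 of 87 at 35 h and 29 at 32 h were below that level. The files carry no detection call, so whether such values are above background is not known. An offset of 64, added before taking the logarithm, damps differences among dim values and left 63 held higher and 45 held lower.

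Identifiers starting with K_ made up 57.1% of the higher list (76 of 133) and 59.8% of the lower list (52 of 87), against 35.5% of all probe sets kept. This share falls with level over the whole array, at 48.7% in the lowest quartile and 22.6% in the highest. The held lists are low in level, but both shares lay above that of the lowest quartile as well. The reason was not tested. What the prefix stands for is not given in the sources used here. A full set of 6 probes was present in 131 of the 133 and 86 of the 87, against 99.3% of all probe sets kept.

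The held lists did not stay at their 35 h and 32 h levels. Their levels at 47, 35 and 32 h follow from the choice of the lists, while the 4 later arrays did not enter it other than through the filter. In the higher list the median log2 intensity was 6.64 at 47 h, 9.81 at 35 h and 9.92 at 32 h, then 6.58 at 23 h, 8.64 at 14 h, 10.03 at 8 h and finally 8.89 at 2 h. It was thus lowest at 47 h and 23 h, highest at 8 h, and in between at 14 h and 2 h. In the lower list it was 9.79 at 47 h, 6.94 at 35 h, 6.83 at 32 h, then 9.44 at 23 h, 9.45 at 14 h, 6.68 at 8 h and finally 8.45 at 2 h. Here 47, 23 and 14 h were high, 35, 32 and 8 h low, and 2 h in between. The median of all probe sets kept stayed between 10.52 and 10.70.

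**Figure D3:**
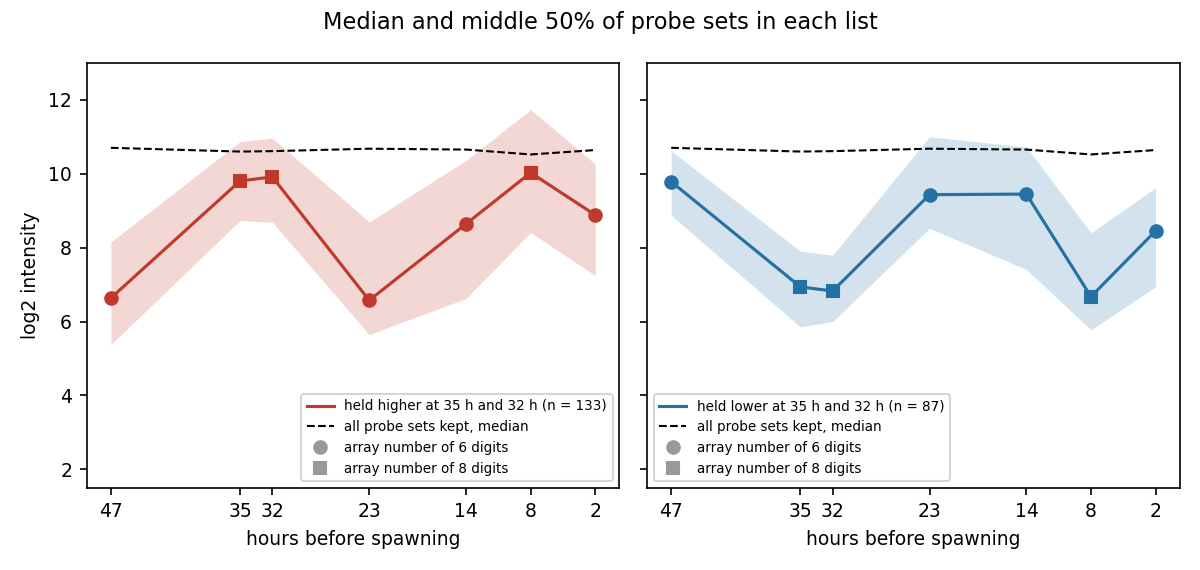
Lines give the median log2 intensity of the 133 probe sets held higher (left) and the 87 held lower (right) at 35 h and 32 h, against hours before spawning, with the middle 50% shaded. Squares mark arrays of the 8-digit and circles those of the 6-digit series. Both lists are back near their 47 h level at 23 h and away from it again at 8 h.

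Each probe set's later values were set against its own 47 h level and its own mean of 35 h and 32 h. In the held lists these levels lie at least 4-fold apart, while over all probe sets kept their median distance is 0.35 (log2). The shares here and in the next paragraph are thus set beside a background with much smaller distances. At 23 h 119 of the 133 higher and 71 of the 87 lower probe sets were nearer to 47 h, which is 89.5% and 81.6%, against 66.1% of all probe sets kept. At 14 h the shares were 48.1% and 69%, against 57.5%. At 8 h they were 12% and 17.2%, against 33%, so that 117 of the 133 and 72 of the 87 were nearer to the mean of 35 h and 32 h. At 2 h they were 39.1% and 44.8%, against 48.3%. The labelled times of 47 h and 23 h lie 24 h apart, as do those of 32 h and 8 h, and each of these pairs also shares the array-number series. The part of the 24 h spacing or of the array-number series in these shares was not tested. By the table's times, which put other arrays at 5 of the 7 times, both lists together held 1158 probe sets. Of these 43.2% were nearer to 47 h at 23 h and 20.8% at 8 h, against 86.4% and 14.1% of the 220 by the per-array files. The shares over all probe sets kept were not computed by the table's times, so these values have no background beside them.

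The course that follows the array-number series exactly, with 23, 14 and 2 h nearer to 47 h and 8 h nearer to 35 h and 32 h, was shown by 28 of the 133 higher probe sets (21.1%) and 25 of the 87 lower ones (28.7%). Over all probe sets kept it was shown by 13.4%. In the higher list the most frequent course was another, with 23 h alone nearer to 47 h and 14, 8 and 2 h nearer to 35 h and 32 h, in 39 probe sets (29.3%, against 7.77% of all). In the lower list the course along the array-number series was the most frequent, and 23 h alone was nearer to 47 h in 8 of the 87 (9.2%). A further 27 of the higher (20.3%) and 21 of the lower list (24.1%) were nearer to 47 h at 23 h and 14 h and nearer to 35 h and 32 h at 8 h and 2 h, against 14.4% of all. At all 4 later times 10 of the higher (7.52%) and 12 of the lower probe sets (13.8%) were nearer to the mean of 35 h and 32 h, against 16.3% of all. At all 4 times 6 of the higher (4.51%) and 7 of the lower (8.05%) were nearer to 47 h, against 16.1% of all.

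Contrasts among the 23, 14, 8 and 2 h arrays share no array with the choice of the lists other than through the filter, which uses all 7 arrays. Those set against 23 h share that array with each other. They were added after the data were seen. Between 14 h and 23 h, both of the 6-digit series, 68 of the 133 higher probe sets (51.1%) were at least 2-fold higher at 14 h and 8 were at least 2-fold lower, against 3.93% higher and 4.41% lower among all probe sets kept. Of the 87 lower probe sets 23 (26.4%) were 2-fold lower and 8 higher at 14 h. The lowest quartile of mean level, which differs most, had 7.41% higher and 7.2% lower in this contrast. At 23 h 54 of the 133 lay below 75.8, the intensity at the filter level, and 1 of the 87 did, against 1608 of all 47773. Values so low leave less room for a fall than for a rise, and the part of this in the counts was not tested. In both lists together 41.4% differed 2-fold in the direction of their list, and by the table's times 15.3% did. The latter share is of other lists and another contrast. The table's 14 h and 23 h columns hold the per-array files of 32 h and 2 h, which are of different array-number series. For it the share over all probe sets kept was not computed.

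Against 23 h, the same direction was seen at the 2 last times. The low 23 h levels of many probe sets in the higher list bear on the contrasts with 23 h here as well. At 8 h against 23 h, 116 of the 133 (87.2%) were 2-fold higher and 72 of the 87 (82.8%) 2-fold lower, where 11.5% and 17.4% of all probe sets kept were higher and lower. These 2 arrays are of different array-number series. At 2 h against 23 h, again within the 6-digit series, 81 of the 133 (60.9%) were higher and 52 of the 87 (59.8%) lower, against 12.1% and 14.9% of all. The lists differed at 14 h: the median difference from 23 h to 14 h was 1.10 in the higher list and -0.46 in the lower list, and from 14 h to 8 h 1.44 and -2.20. Between 8 h and 2 h the medians turned, at -1.23 and 1.01, so that levels at 2 h lay back toward those of 23 h. The contrast of 2 h with 14 h lies within the 6-digit series and does not use 23 h. In it 38 of the 133 (28.6%) were 2-fold higher and 38 were 2-fold lower, with a median of -0.03. Of the 87, 48 (55.2%) were 2-fold lower and 9 higher, against 11.7% higher and 14% lower of all probe sets kept.

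**Figure D4:**
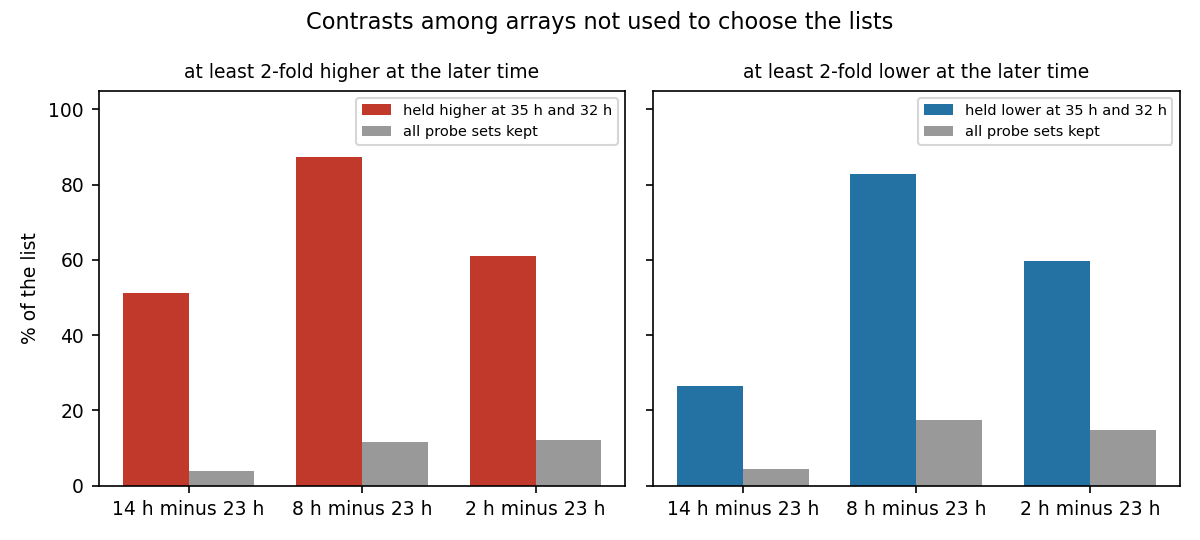
Bars give the share of a list at least 2-fold higher (left, for the 133 held higher) or lower (right, for the 87 held lower) at 14, 8 and 2 h than at 23 h, beside the share of all probe sets kept in grey. In the higher list the shares are 51.1%, 87.2% and 60.9% against 3.93%, 11.5% and 12.1%, and in the lower list 26.4%, 82.8% and 59.8% against 4.41%, 17.4% and 14.9%.

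Without any list, the mean difference of 35 h and 32 h from 47 h can be set against these contrasts over all 47773 probe sets. Pearson's r was 0.25 with 14 h minus 23 h, 0.26 with 2 h minus 23 h and 0.56 with 8 h minus 23 h. For 32 h minus 35 h the same contrasts gave 0.05, -0.22 and -0.09. Without the 23 h array, r of the mean difference was 0.44 with 8 h minus 14 h, 0.13 with 2 h minus 14 h and -0.26 with 2 h minus 8 h. For 32 h minus 35 h these gave -0.13, -0.25 and -0.15. These values describe 7 arrays, probe sets are not independent, and the contrast with the highest value crosses the array-number series as the mean difference itself does.

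Single probe sets with large differences from 47 h serve as examples. They are given by identifier, as the 2 largest differences in each direction among held probe sets with 35 h and 32 h within 1 (log2) of each other. K_OLAT0000S00012790 had intensities of 36.1 at 47 h, 3934 at 35 h, 2136 at 32 h, then 33.2 at 23 h, 39.6 at 14 h, 17047 at 8 h and finally 885 at 2 h. It was low at 47, 23 and 14 h and high at the other 4 times, and its mean difference from 47 h was 6.33 on the log2 scale, where 32 h and 35 h differed by -0.88. K_OLAT0000S00017309 had 27.5 at 47 h, 1704 at 35 h, 2356 at 32 h, then 23.1 at 23 h, 37.4 at 14 h, 3372 at 8 h and finally 4503 at 2 h. It was low at the same 3 times, stayed high to the end, and had a mean difference of 6.18, with 0.47 between 32 h and 35 h. Neither of these probe sets shows the most frequent course of the higher list, with 23 h alone nearer to 47 h.

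In the other direction, OLAT0001S00012848 had 4448 at 47 h, 135 at 35 h, 116 at 32 h, then 5818 at 23 h, 4306 at 14 h, 237 at 8 h and finally 1880 at 2 h. It was low at 35, 32 and 8 h only, with a mean difference of -5.15 and -0.23 between 32 h and 35 h. OLAT0001S00028697 had 1090 at 47 h, 49.8 at 35 h, 82.5 at 32 h, then 274 at 23 h, 52 at 14 h, 35.8 at 8 h and finally 40.8 at 2 h. It stood at its highest at 47 h, partly back at 23 h and low at the other 5 times, with a mean difference of -4.09. By the times of the series table the first 3 of these differed from 47 h by 0.01, 0.09 and 0.17, and the last by -3.19. The greatest mean difference of any probe set, 6.90, was that of one with 35 h and 32 h further than 2-fold apart. The same rule left out K_OLAT0000S00025434, at 6.33, K_OLAT0000S00008402, at -4.35, and K_OLAT0000S00021470, at -4.19. With the offset of 64 the mean differences of the 4 examples were 4.89, 4.50, -4.57 and -3.16. The probe set at 6.90, OLAT0001S00023303, ran close to K_OLAT0000S00012790, with 22.3 at 47 h, 3993 at 35 h and 15525 at 8 h. Whether different probe sets measure the same transcript was not tested, so the lists count probe sets, not genes.

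**Figure D5:**
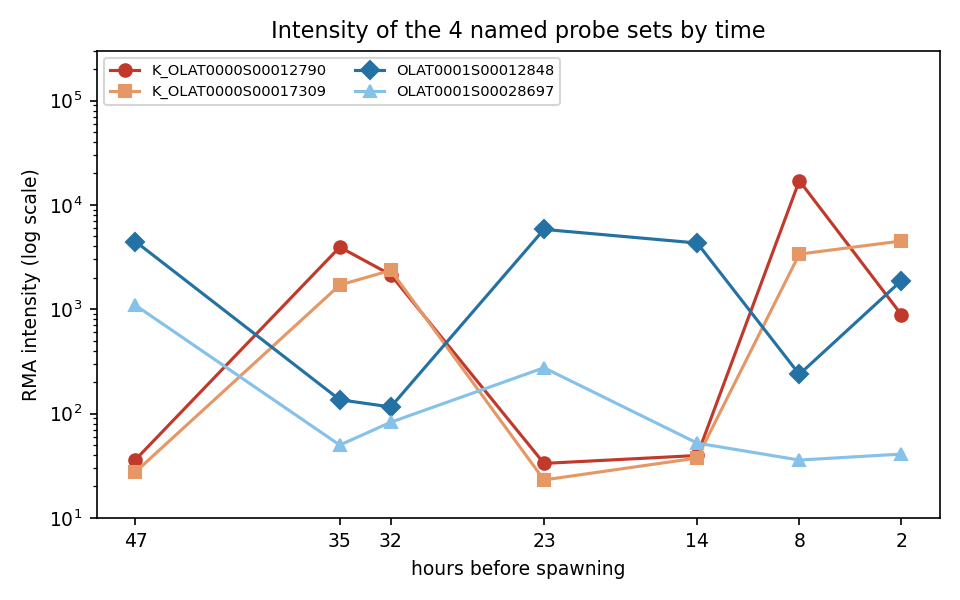
RMA intensity (log axis) of 4 probe sets against hours before spawning, 1 array per time. The 2 probe sets higher at 35 h and 32 h lie at 23.1 to 39.6 at 47, 23 and 14 h, while OLAT0001S00012848 is low at 35, 32 and 8 h.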

How the data were processed

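Gene expression was measured on single-colour (Cy3) NimbleGen arrays, 1 per time point. The authors deposited RMA intensities on a linear scale with the number of probes per probe set, per the file headers and, for RMA, the notes on processing by the submitters. For the version and settings of RMA, the sources used here give nothing. Intensities were put on the log2 scale, the 25th percentile filter was applied over the 7 arrays, and differences, counts and correlations were computed with Python 3.11.15, pandas 2.3.3 and numpy 2.4.6, and drawn with matplotlib 3.10.9. Counting was tested on simulated data with far less spread than the arrays. This checks the counting only, not how often spread alone gives a 4-fold difference. Arrays were grouped by their developmental stage label. With 1 array per time no test was made. The series table's columns were matched to the per-array files within 0.001 intensity units. The members and the lists were chosen with earlier results of these data known. Gene and marker lists need gene symbols and were not used. Named probe sets are the 2 largest differences in each direction among those held at 4-fold with 35 h and 32 h within 1 (log2). Alternatives were the fold limit, the filter, the scaling, an offset, either later array alone and the series table's times. The number of arrays limits the precision. An overall change in RNA per follicle was not assessed.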

Additional observations from a re-analysis of the deposited data

How the results depend on the processing

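Of 111 alternatives 71 were counted as leaving a result in place, 39 as moving it and 1 as reversing it. The limits were wide. A width counted as in place if it shifted by less than 0.51, the SD of 32 h minus 35 h. Shares were judged by an interval that treats probe sets as independent, which they are not. Counts in place include 502 (level then higher, no filter) against 346, and 1390 (lower then level, median centring) against 1975. Within these limits, scaling by quantiles or by the array median and dropping the filter moved no result. Scaling did turn the 2-fold balance of directions as given above. Counts in this part give the mean difference, the held difference and the 32 h against 35 h difference in that order, with 421, 220 and 369 as the main values at 4-fold. A 2-fold limit gave 4652, 2767 and 2515, a filter at the 50th percentile 122, 71 and 92, an offset of 64 198, 108 and 188, and the table's times, those of the deposited series table, gave 1848, 1158 and 950. Either later array alone gave 543 to 664 for the mean and for the held difference, which are then the same count by definition. The held count cannot fall in these alternatives, which are among the 111. With the table's times the held probe sets nearer to 47 h were 43.2% at 23 h, 88.7% at 14 h, 20.8% at 8 h and finally 93.3% at 2 h, against 86.4%, 56.4%, 14.1% and 41.4%, and at 14 h 63.0% with the offset. By those times 15.3% of the held probe sets changed 2-fold from 23 h to 14 h in the direction of their list, against 41.4%. Shares over all probe sets kept were not computed by the table's times. Stepwise counts with the table's times were 403 (higher in both steps), 313 (lower in both steps), 311 (higher then lower), 152 (lower then higher), 1078 (lower then level), 954 (level then higher) and 930 (level then lower). With the offset they were 27 (higher in both steps), 10 (lower in both), 283 (lower then higher) and 183 (level then lower). The difference of OLAT0001S00012848 reversed to 0.17 by the table's times. The table's times put other arrays at 5 of the 7 times, so its contrasts are between other arrays. The cause of the moves under the other alternatives was not tested. No paired analysis was possible because each time has 1 array. Signal over background is not known for these arrays.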
